A study of Rattus norvegicus with 6 samples.

Results

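Transcript levels of the translation initiation and elongation factors were followed in the established rat fibroblast line Rat-1, grown on extracellular matrix (ECM) in 3 states. The genes were chosen by name alone, as every row of the expression table whose symbol starts with Eif and a digit from 1 to 6, or with Eef and the digit 1 or 2. This gave 60 genes of 17143, of which 56 were abundant enough to test among 7284 tested genes. The 4 not tested were Eef1a2, Eif2d, Eif4e3 and Eif2c1, and the last of these is an older name of an Argonaute gene that serves RNA silencing, not translation initiation.

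All groups used the same cells, 25000 per well, collected 4 h after seeding. They differed in the matrix: native ECM, ECM remodelled by matrix metalloproteinase 1 (MMP1) or ECM remodelled by matrix metalloproteinase 13 (MMP13), both secreted collagenases, with 2 libraries in each group. The design asks how fibroblast transcription responds to matrix that either protease has degraded. The labels call the libraries duplicates without saying whether they were separate cultures, so p-values measure only a spread between libraries that may be technical. Of 8 fibroblast markers every gene was detected, and together they took between 2.11% and 2.36% of reads in each library, while each list of other cell types took at most 0.0182%.

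Protein synthesis starts when the small ribosomal subunit, bound by eIF1, eIF1A, eIF3 and eIF5, takes up the initiator tRNA in a ternary complex with eIF2 and GTP. The loaded subunit is brought to the capped end of the mRNA by eIF4F, which is made of the cap-binding protein eIF4E, the scaffold eIF4G and the helicase eIF4A. After the start codon is found, eIF5B joins the large subunit, and eEF1A, its exchange factor eEF1B, eEF2 and eIF5A then carry elongation. Control falls mainly on eIF2, through kinases that block its recycling by eIF2B, and on eIF4E, through binding proteins that mTOR signalling releases.

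Many mRNAs of the translation apparatus begin with a cytosine followed by an unbroken run of pyrimidines, the 5′ terminal oligopyrimidine tract, through which mTOR controls their translation. Windows near the annotated start of several factors are therefore shown, with one such run of letters each, read 5′ to 3′ on the transcript strand from RefSeq promoters of build GRCr8. Capitals mark a C followed by at least 5 bases that are each C or T, a run of at least 6 that begins within 30 bases of the annotated start. Of the runs shown, only those of Eif1 and Eef1a1 cover the annotated first base, beginning 4 and 1 bases before it. Those of Eef1g and Eif3d begin 20 and 16 bases before it and end upstream, outside the annotated transcript, and those of Eef1b2, Eif3f and Eef2 begin 2, 4 and 16 bases after it. The first 5 are the most abundant members that hold such a run, Eif3f has a long one, and Eif3d was among the members of smallest p.
Eef2, chr7:9189210-9189228, minus strand: ggcgcgCTTCCCTgttcac
Eef1g, chr1:215289789-215289812, plus strand: gccccaCCCCCTTTCTCTgcggaa
Eef1b2, chr9:72074087-72074113, plus strand: tcccggCCCTTTTTCTCCCTCagcgct
Eif1, chr10:85747127-85747145, plus strand: gcgccgCCCCTCCgcccca
Eef1a1, chr8:88225058-88225076, minus strand: gacgttCTTTTTCgcaacg
Eif3f, chr1:172369060-172369085, plus strand: ttctagCCTCTCTCTTTCTCggcaag
Eif3d, chr7:111432741-111432762, minus strand: gcgcatCTTCCCTCCTgtcttg

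A promoter was found for 52 members, some with more than 1 entry, and 24 of the 55 entries (43.6%) held such a run on the transcript strand. The share was 40.8% over all 33469 promoters of the same length and 37.6% over those of tested genes. It was 6 of 7 entries (85.7%) for elongation factors and 18 of 48 (37.5%) for initiation factors, beside 54 of 73 (74.0%) for ribosomal protein genes. A run of these letters near an annotated start is a description of the window and not evidence of a functional tract. The 23 tested members with a run had a median log2 fold of -0.0073 on MMP1-remodelled matrix and 0.0047 on MMP13-remodelled matrix against native. For the 27 tested members with a promoter and no run the medians were -0.020 and 0.0085.

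The libraries held between 161817 and 362122 recovered reads. Values are given in units, that is reads divided by the authors' size factor for the library, and 1 read was worth between 0.735 and 1.68 units. Reads come from 3′ ends of transcripts and were not set against length. Folds compare libraries within a gene, while rankings and sums over genes describe reads and not numbers of transcripts. A level of 0 allows up to 3 reads, which is 2.21 units in the deepest library and 5.04 in the shallowest, for counting error only. Reads counted for 25 members may include those of an overlapping gene in the GRCr8 annotation. Eef1a1, Eef1g, Eif4e and Eif5 have 20, 16, 11 and 9 RefSeq pseudogene entries named after them, and their reads are uncertain where these copies are alike.

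No member passed the test in any comparison. The test was limma on log2(units + 1), with p-values adjusted over all 7284 genes and a call at an adjusted p under 0.05. On MMP1-remodelled matrix 0 of 56 members passed, against 0.151% of all genes. On MMP13-remodelled matrix 0 of 56 passed, against 0.412% of all genes, and between both remodelled matrices 0 of 56 passed, against 0.0412%. With so few calls among all genes, 0 among 56 members is near the background. By edgeR on the recovered reads 0 of 47 fitted members passed, with 10, 32 and 2 calls among 4574 genes in the same order of comparisons. By DESeq2 0 of 60 fitted members passed, with 1, 30 and 1 calls among all genes. For MMP13 against native DESeq2 adjusted only 737 genes, and a member outside these could not pass.

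At an unadjusted p under 0.05 limma had 7 members (12.5%) on MMP1-remodelled matrix, beside 8.24% of all genes, and edgeR had 4 and DESeq2 3. On MMP13-remodelled matrix limma also had 7 (12.5%), beside 8.05% of all genes, edgeR had 7 and DESeq2 3. Between the remodelled matrices limma had 2 (3.57%), beside 5.22%, edgeR had 1 and DESeq2 0. The median log2 fold of the tested members was -0.048, 0.0066 and 0.014 in these comparisons, and that of all tested genes was 0.016, 0.0088 and -0.0027. Against native, 25 members had a fold above 0 and 31 one below on MMP1-remodelled matrix, and 29 and 27 did on MMP13-remodelled matrix. Both comparisons use the same native libraries, so their values are given side by side and are not independent.

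Libraries that do not overlap between groups were counted as well. On MMP1-remodelled matrix both libraries lay above both native ones for 13 of 56 members (23.2%, with 19.6% of all genes) and below for 7 (12.5%, with 18.8%). On MMP13-remodelled matrix the counts were 11 above (19.6%, with 18.9%) and 14 below (25.0%, with 18.6%). Between the remodelled matrices MMP13 lay above MMP1 for 6 members (10.7%, with 15.9% of all genes) and below for 6 (10.7%, with 15.4%). With groups of 2 such separation is frequent among all genes, and these shares lie within several percentage points of it.

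**Figure D1:**
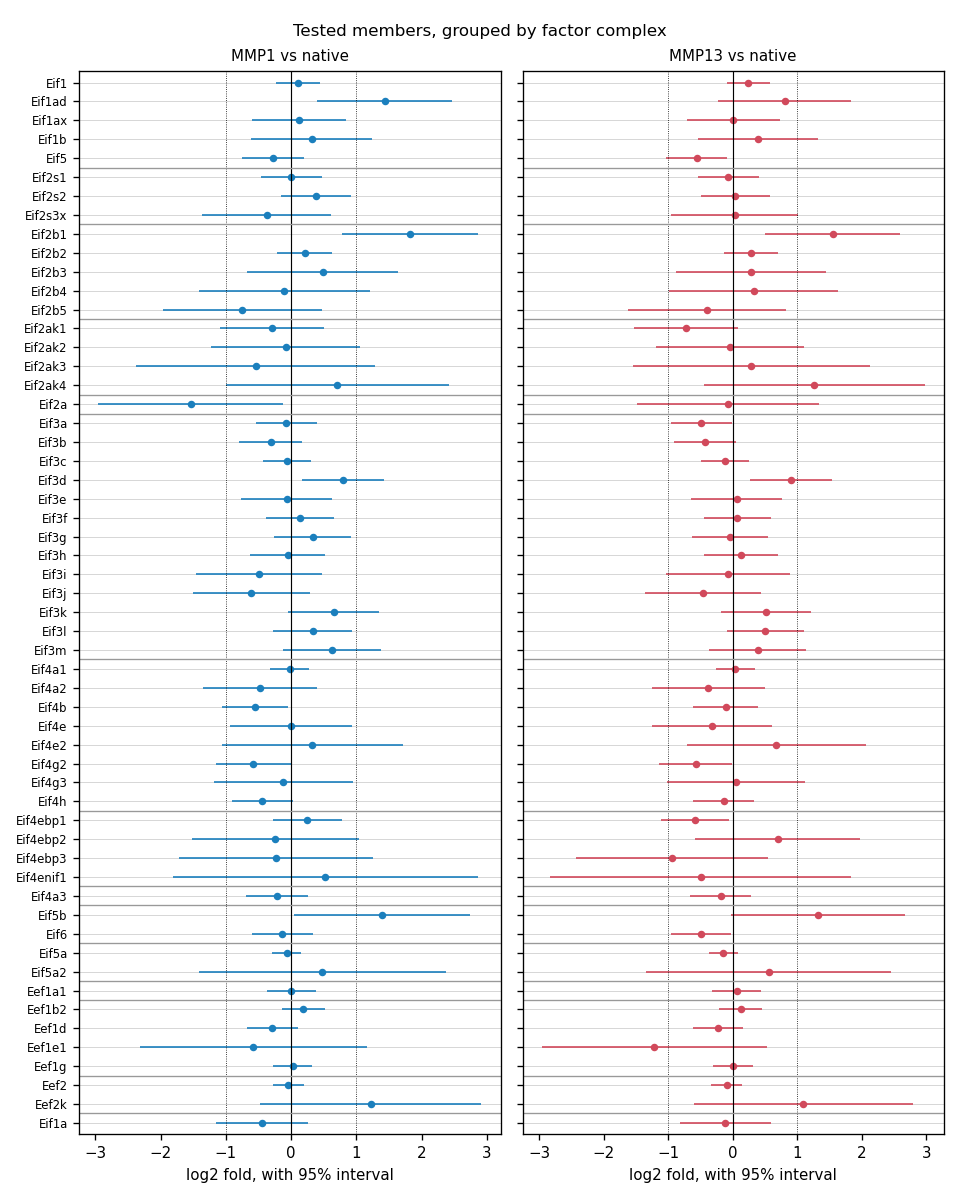
Log2 fold of the 56 tested members on MMP1-remodelled (left) and MMP13-remodelled matrix (right) against native, each point with its 95% interval from limma, grouped by factor complex, and dotted lines at 2-fold. Points of abundant members such as Eif5a and Eef2 lie close to 0 with narrow intervals, while Eif2b1 on MMP1-remodelled matrix lies highest, at 1.82.

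The intervals bound the differences that these libraries allow. On MMP1-remodelled matrix the 95% interval lay within 2-fold in either direction for 26 of 56 members and for 1365 of 7284 tested genes (18.7%). The count was 24 on MMP13-remodelled matrix and 31 between the remodelled matrices, beside 1346 (18.5%) and 1542 (21.2%) of all genes. Interval width follows level, and 24 of 56 members but 883 of 7284 genes had a mean of at least 60 units. The counts therefore do not compare genes of like level. These intervals take their error from the spread of all genes of like level, and 19 members scattered more than that trend. With each member's own spread, an interval added after the data were seen, the counts were 20, 19 and 22. For the remaining members a 2-fold difference in at least 1 direction lay inside the interval.

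Together the members took 2.00% and 2.11% of reads on native matrix, 1.97% and 2.03% on MMP1-remodelled and 1.96% and 1.94% on MMP13-remodelled matrix. Both MMP13 libraries lay below all others, and the MMP1 libraries overlapped native. The mean share was 2.06% ± 0.079 on native, 2.00% ± 0.044 on MMP1-remodelled and 1.95% ± 0.012 on MMP13-remodelled matrix (SD, n = 2 each). In two-sided exact permutation tests p was 0.667 for MMP1 and 0.333 for MMP13 against native, and 0.333 between the remodelled matrices, where 2 against 2 cannot go below 0.333. The rows named for ribosomal RNA took 0.381% and 0.337% of reads on native, 0.735% and 0.996% on MMP1-remodelled and 0.805% and 1.04% on MMP13-remodelled matrix. With those rows left out of the total the members' share was 2.01% and 2.12%, 1.98% and 2.05%, and 1.98% and 1.96%. Fewer cells of a kind and less RNA per cell cannot be told apart in such bulk samples.

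Of the members' units 50.1% came from 6 genes: Eif5a, Eef2, Eif4a1, Eef1g, Eef1b2 and Eif1. The 24 members with a mean of at least 60 units had a median absolute log2 fold of 0.17 on MMP1-remodelled and 0.13 on MMP13-remodelled matrix. All 883 genes at that level had 0.21 and 0.22. The largest absolute log2 fold among these 24 members was 0.58 in both comparisons with native. For scale, the haem oxygenase gene Hmox1 had log2 folds of 1.15 and 2.42. On MMP1-remodelled matrix the ribosomal RNA row Rn45s, at 1.33, had a larger fold than Hmox1. So did the sparse members Eif2b1, at 1.82, Eif1ad, at 1.43, Eif5b, at 1.39, and Eef2k, at 1.22, while the sparse Eif2a was at -1.54.

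**Figure D2:**
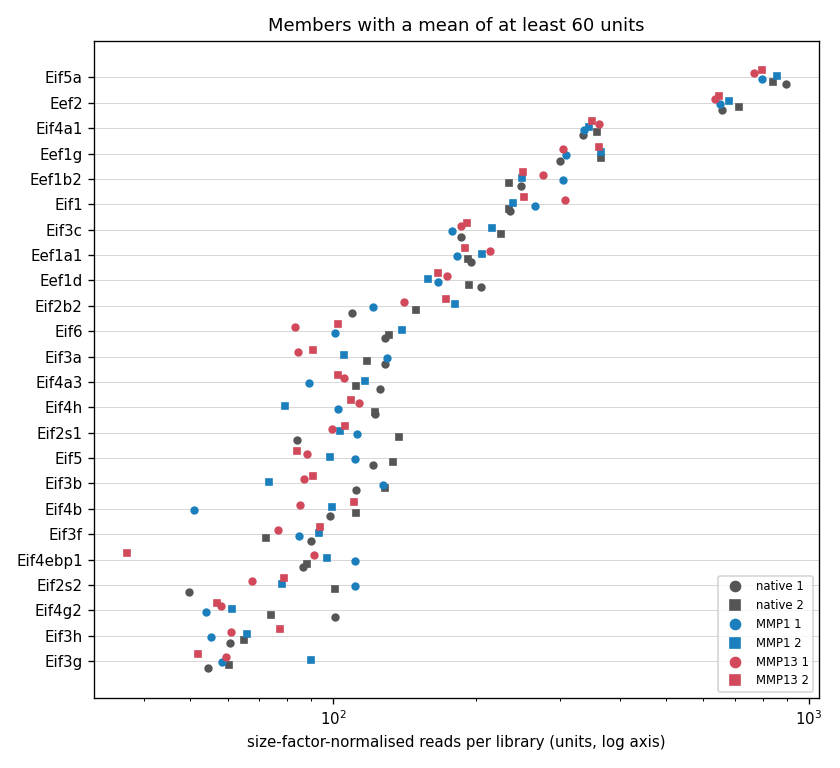
Units per library on a log axis for the 24 members with a mean of at least 60 units, with circles and squares for replicates 1 and 2 and colours for the matrix. Most rows show the 6 libraries close together, and the outlying point is Eif4ebp1 in MMP13 replicate 2, at 36.9 units.

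Start codon selection rests on eIF1 and eIF1A, which hold the small subunit open for scanning, and on eIF5, which activates the GTPase of eIF2. Eif1, at 236 and 234 units on native matrix, was at 266 and 239 on MMP1-remodelled and 307 and 252 on MMP13-remodelled matrix, so both groups lay above native. Its log2 folds were 0.10 (SE 0.17) and 0.24 (SE 0.17), with adjusted p of 0.928 and 0.781. Eif5 had 122 and 134 units on native, 111 and 98.4 on MMP1-remodelled and 88.2 and 84.0 on MMP13-remodelled matrix. Native was highest, MMP13 lowest, and no groups overlapped, with log2 folds of -0.28 and -0.56 (SE 0.24) and adjusted p of 0.787 and 0.484. Without any 1 library the log2 fold of Eif5 on MMP13-remodelled matrix ran from -0.63 to -0.49.

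The sparse paralog Eif1b lay between 15.8 and 29.4 units, with folds of 0.32 and 0.39 and overlapping libraries. Eif1ax, which encodes eIF1A, was at 37.7 and 36.2 units on native, 42.4 and 38.4 on MMP1-remodelled and 31.6 and 43.7 on MMP13-remodelled matrix. The eIF1A-domain gene Eif1ad was at 6.08 and 14.3 units on native, 21.9 and 33.6 on MMP1-remodelled and 22.1 and 13.4 on MMP13-remodelled matrix. Its MMP1 libraries lay above native and its MMP13 libraries overlapped it. The log2 fold of Eif1ad on MMP1-remodelled matrix was 1.43 (SE 0.53, adjusted p = 0.305), and without a library it ran from 0.88 to 1.99. A row named Eif1a, whose link to the eIF1A genes was not checked, was at 57.1 and 35.5 units on native, 26.3 and 40.8 on MMP1-remodelled and 41.2 and 42.0 on MMP13-remodelled matrix.

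The subunits of eIF2, which carries the initiator tRNA, scattered widely between replicates. Eif2s1, the alpha subunit that stress kinases phosphorylate, was at 83.9 and 137 units on native, 112 and 103 on MMP1-remodelled and 99.3 and 106 on MMP13-remodelled matrix. Eif2s2, the beta subunit, was at 49.8 and 101 units on native, 111 and 78.0 on MMP1-remodelled and 67.7 and 78.9 on MMP13-remodelled matrix. The native values of Eif2s1 enclosed those of all other libraries, and those of Eif2s2 all but 1. Eif2s3x, the gamma subunit, was at 19.4 and 20.4 units on native, 30.7 and 7.20 on MMP1-remodelled and 27.2 and 15.1 on MMP13-remodelled matrix. The 3 genes had log2 folds between -0.38 and 0.38 on MMP1-remodelled and between -0.066 and 0.040 on MMP13-remodelled matrix.

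In eIF2B, the exchange factor that recharges eIF2 with GTP, the alpha subunit gene Eif2b1 stood apart from the other 4. It was at 8.51 and 5.28 units on native, 26.3 and 26.4 on MMP1-remodelled and 21.3 and 21.8 on MMP13-remodelled matrix, from 7 reads in each native library and between 13 and 29 in the others. The 4 libraries of remodelled matrix lay above both native ones, and replicates were close. The log2 fold was 1.82 (SE 0.54, 95% interval 0.77 to 2.87, adjusted p = 0.145) on MMP1-remodelled and 1.55 (SE 0.54, 0.50 to 2.60, adjusted p = 0.272) on MMP13-remodelled matrix. Neither passed, and over the alternatives the adjusted p ran from 0.124 to 1 and from 0.194 to 0.773. Gtf2h3 overlaps Eif2b1 in the GRCr8 annotation, and how much of the reads came from it was not tested.

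Eif2b2, the beta subunit gene of eIF2B, was at 109 and 149 units on native, 121 and 180.1 on MMP1-remodelled and 141 and 173 on MMP13-remodelled matrix, with overlapping groups. Eif2b3, Eif2b4 and the catalytic Eif2b5 lay between 4.80 and 20.4 units in all libraries and overlapped between groups against native. Their log2 folds ran from -0.75 for Eif2b5 on MMP1-remodelled matrix to 0.48 for Eif2b3 there. The kinases of eIF2 were sparse too. Eif2ak1, the haem-regulated kinase, was at 30.4 and 46.0 units on native, 24.8 and 37.2 on MMP1-remodelled and 15.4 and 31.9 on MMP13-remodelled matrix, and all groups overlapped. Eif2ak2, the double-stranded RNA kinase PKR, lay between 8.76 and 18 units and also overlapped. Eif2ak3, the endoplasmic reticulum kinase PERK, and Eif2ak4, the amino acid sensor GCN2, had values from 2.92 to 13.4 and from 1.22 to 10.8 units. Eif2ak3 rested on 2 to 8 reads per library and its groups overlapped. Eif2ak4 was at 1.22 and 6.79 units on native, 2.92 and 10.8 on MMP1-remodelled and 9.56 and 8.40 on MMP13-remodelled matrix, from 1 to 13 reads per library. Its MMP13 libraries lay above native and its MMP1 libraries overlapped it, with log2 folds of 0.71 and 1.26 (SE 0.87) and adjusted p of 0.879 and 0.772.

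**Figure D3:**
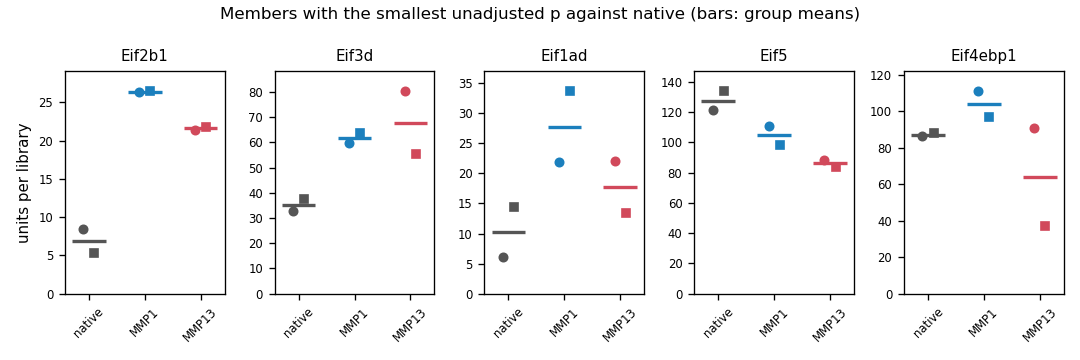
Units per library for Eif2b1, Eif3d, Eif1ad, Eif5 and Eif4ebp1, the 5 members with the smallest unadjusted p against native, with circles and squares for replicates 1 and 2, bars at group means and axes from 0. Eif2b1 sits at 5.28 to 8.51 units on native and 21.3 to 26.4 on remodelled matrix, and in Eif4ebp1 the lower MMP13 point is far from the other.

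The initiator tRNA can also be delivered without eIF2, for which Eif2a and Eif2d encode candidates. Eif2a was at 15.8 and 9.81 units on native, 8.76 and 1.20 on MMP1-remodelled and 10.3 and 13.4 on MMP13-remodelled matrix. The MMP1 libraries lay lowest, 1 of them on a single read. The log2 fold was -1.54 against native (SE 0.72, adjusted p = 0.537), and with 1 library dropped at a time it ran from -2.61 to -0.47. Eif2d was below the level for testing.

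The scaffold eIF3 bridges the small subunit and eIF4F and was measured through 13 genes. Their summed level was 878 and 894 units on native, 922 and 942 on MMP1-remodelled and 866 and 888 on MMP13-remodelled matrix. The MMP1 sums, 932 ± 14.7 units, lay above the native 886 ± 11.7 (SD, n = 2 each), and the MMP13 sums overlapped native. None of the 13 passed, and their median log2 fold was -0.052 on MMP1-remodelled and 0.058 on MMP13-remodelled matrix, beside 0.016 and 0.0088 over all genes.

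Within eIF3 the largest folds belonged to Eif3d, whose product can itself bind the cap of some mRNAs. Eif3d was at 32.8 and 37.7 units on native, 59.9 and 63.6 on MMP1-remodelled and 80.2 and 55.4 on MMP13-remodelled matrix, with both remodelled groups above native. Its log2 folds were 0.79 (SE 0.32, 95% interval 0.17 to 1.42, adjusted p = 0.403) and 0.90 (SE 0.32, 0.27 to 1.53, adjusted p = 0.293). Neither passed, although every fit that left out a library gave a fold above 0, from 0.70 to 0.89 and from 0.64 to 1.17. Eif3k and Eif3l also lay above native in all 4 remodelled libraries. Eif3k was at 30.4 and 31.7 units on native, 42.4 and 57.6 on MMP1-remodelled and 45.6 and 43.7 on MMP13-remodelled matrix. Eif3l was at 47.4 and 49.1 units on native, 64.3 and 57.6 on MMP1-remodelled and 74.3 and 63.8 on MMP13-remodelled matrix. The log2 folds were 0.65 and 0.51 for Eif3k and 0.33 and 0.50 for Eif3l, with adjusted p of at least 0.648.

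Eif3a, Eif3b and Eif3c differed from these, in that neither remodelled group lay above native. Eif3a, the largest subunit, was at 129 and 118 units on native, 130.0 and 106 on MMP1-remodelled and 84.6 and 90.7 on MMP13-remodelled matrix. Only its MMP13 libraries lay apart from native, with a log2 fold of -0.49 (SE 0.24, adjusted p = 0.591). Eif3b was at 112 and 128 units on native, 127 and 73.2 on MMP1-remodelled and 86.8 and 90.7 on MMP13-remodelled matrix, and there the MMP13 libraries again lay below native (log2 fold -0.43, adjusted p = 0.682). Eif3c ranged from 178 to 226 units with overlapping groups and log2 folds of -0.06 and -0.12.

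Among the other subunits Eif3f ranged from 72.4 to 94.0 units, Eif3g from 52.1 to 90.0 and Eif3h from 55.5 to 77.2, and none of them was separated from native. Eif3m was at 25.5 and 29.4 units on native, 43.8 and 42.0 on MMP1-remodelled and 28.7 and 45.3 on MMP13-remodelled matrix, and its MMP1 libraries lay above native (log2 fold 0.63, adjusted p = 0.705). Eif3i, at 21.9 and 21.9 units on native, had 17.5 and 13.2 on MMP1-remodelled and 21.3 and 20.2 on MMP13-remodelled matrix, with a log2 fold of -0.50 on the former (adjusted p = 0.829). The loosely bound subunit gene Eif3j had 35.3 and 24.1 units on native, 32.1 and 10.8 on MMP1-remodelled and 19.9 and 21.8 on MMP13-remodelled matrix. Eif3e was at 52.3 and 30.9 units on native, 27.7 and 52.8 on MMP1-remodelled and 41.9 and 42.0 on MMP13-remodelled matrix, and all groups overlapped.

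The 9 genes grouped as eIF4F and its helicase cofactors had a lower sum on both remodelled matrices. The sums were 729 and 744 units on native, 621 and 646 on MMP1-remodelled and 681 and 704 on MMP13-remodelled matrix. No groups overlapped, and MMP1 lay lowest, at 633 ± 17.8 against 737 ± 10.4 on native (SD, n = 2 each). Sums of other complexes were also separated from native. Besides eIF3, the eIF4E regulators lay above native on MMP1-remodelled matrix, at 134 and 118 against 111 and 109 units. On MMP13-remodelled matrix eIF2B lay above native, while eIF5A, eIF5B with eIF6, and eEF2 with its kinase lay below. How often sums of gene sets outside the factors separate in this way was not tested. Means of Eif4b, Eif4h and Eif4g2 were 75.4, 90.7 and 57.6 units on MMP1-remodelled matrix, against 105, 123 and 87.4 on native. The eIF4F subunit genes Eif4a1 and Eif4e were nearly level, with means of 341 and 22.2 units against 346 and 22.7. Of the 8 tested genes 7 had a log2 fold below 0 on MMP1-remodelled matrix, with a median of -0.28 (0.016 over all genes), and 5 did on MMP13-remodelled matrix, with a median of -0.12. None of the 8 passed. Among those 7, Eif4e, Eif4a1 and Eif4g3 lay close to 0 on MMP1-remodelled matrix, at -0.0073, -0.020 and -0.12. The MMP1 median was -0.30 with TMM factors and -0.29 with quantile scaling, and lay between -0.32 and -0.19 when any single library was dropped. These medians come from the same libraries as the sums, and the genes are not replicates. They describe the difference already seen and are not a further test of it.

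The RNA helicase gene Eif4a1 was nearly level, at 334 and 358 units on native, 337 and 345 on MMP1-remodelled and 363 and 349 on MMP13-remodelled matrix. Its 95% intervals were -0.32 to 0.28 and -0.26 to 0.34 on the log2 scale. The paralog Eif4a2 was at 31.6 and 27.9 units on native, 21.9 and 20.4 on MMP1-remodelled and 16.9 and 30.2 on MMP13-remodelled matrix, with log2 folds of -0.47 and -0.38 (SE 0.44). Eif4b and Eif4h encode cofactors that stimulate the helicase. Eif4b was at 98.5 and 112 units on native, 51.1 and 99.6 on MMP1-remodelled and 85.3 and 111 on MMP13-remodelled matrix, so that MMP1 replicate 1 alone was low. Its log2 fold on MMP1-remodelled matrix was -0.55 (SE 0.26, adjusted p = 0.541), and -0.073 to -1.02 with a library left out. Eif4h was at 123 and 122 units on native, 102 and 79.2 on MMP1-remodelled and 113 and 109 on MMP13-remodelled matrix, below native in all 4 libraries (log2 folds -0.44 and -0.14, adjusted p = 0.648 and 0.930).

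Of the eIF4G family, Eif4g2 encodes a relative that lacks the eIF4E binding site and serves initiation without the cap-binding protein. No row of the expression table was named Eif4g1. Eif4g2 was at 101 and 74.0 units on native, 54.0 and 61.2 on MMP1-remodelled and 58.1 and 57.1 on MMP13-remodelled matrix. All 4 remodelled libraries lay below both native ones, and the log2 fold was -0.58 in each comparison (SE 0.29, adjusted p = 0.598 and 0.614). Without native replicate 1, the higher of the native pair, the fold was nearer 0, and over libraries left out it ran from -0.80 to -0.36 in both. Eif4g3 lay between 8.40 and 23.4 units with log2 folds of -0.12 and 0.05. The cap-binding gene Eif4e ranged from 15.1 to 27.2 units and overlapped in every comparison. Its relative Eif4e2 had values between 6.04 and 16.8 units.

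The binding proteins that hold eIF4E inactive until mTOR phosphorylates them were led by Eif4ebp1. It was at 86.3 and 88.3 units on native, 111 and 97.2 on MMP1-remodelled and 91.2 and 36.9 on MMP13-remodelled matrix. The MMP1 libraries lay above native, and the MMP13 libraries stood on either side of it. The log2 fold was 0.25 on MMP1-remodelled and -0.58 on MMP13-remodelled matrix (SE 0.27, adjusted p = 0.848 and 0.539). Without MMP13 replicate 2 the latter was 0.062, so its sign rested on that library. Eif4ebp2 was at 8.51 and 9.81 units on native, 11.7 and 4.80 on MMP1-remodelled and 17.6 and 13.4 on MMP13-remodelled matrix. Eif4ebp3 had between 3.36 and 12.2 units, and the eIF4E transporter gene Eif4enif1 between 0 and 6.62.

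**Figure D4:**
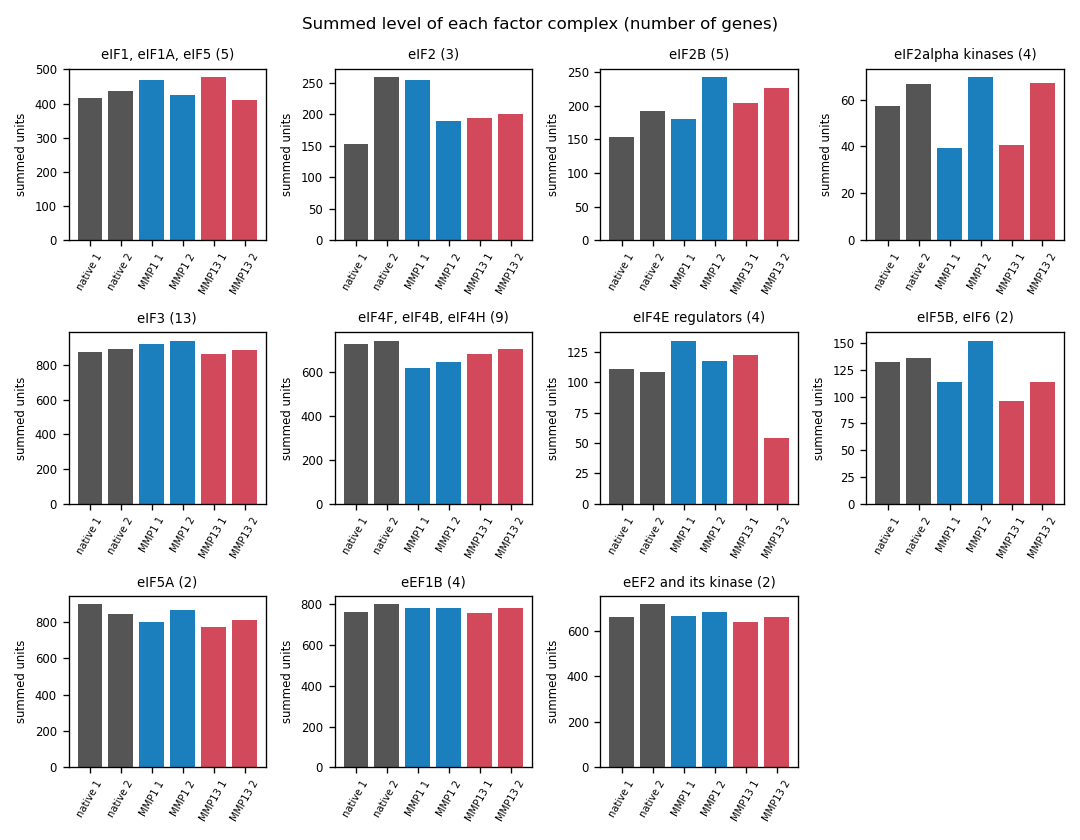
Summed units per library for the 11 factor complexes with at least 2 tested genes, with the number of genes in brackets and axes from 0. The sums of eIF4F with its helicase cofactors are 729 and 744 units on native against 621 and 646 on MMP1-remodelled matrix. The low bar among the eIF4E regulators is MMP13 replicate 2.

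Eif4a3, a relative of eIF4A that marks exon junctions, was at 125 and 112 units on native, 89.1 and 116 on MMP1-remodelled and 105 and 102 on MMP13-remodelled matrix. The joining factor gene Eif5b was at 3.65 and 5.28 units on native, 13.1 and 13.2 on MMP1-remodelled and 13.2 and 11.8 on MMP13-remodelled matrix. All 4 remodelled libraries lay above native, but native held 3 and 7 reads. Its log2 folds were 1.39 and 1.32 (SE 0.69), with adjusted p of 0.597 and 0.630. Eif6, which keeps the large subunit from joining too early, was at 129 and 131 units on native, 101 and 139 on MMP1-remodelled and 83.1 and 102 on MMP13-remodelled matrix. Its MMP13 libraries lay below native (log2 fold -0.49, SE 0.24, adjusted p = 0.568), and its MMP1 libraries stood on either side.

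Eif5a, whose product carries the modified lysine hypusine and helps ribosomes past difficult peptide bonds, was at 895 and 838 units on native, 797 and 858 on MMP1-remodelled and 768 and 796 on MMP13-remodelled matrix. From 474 to 1111 reads per library stood behind these values. The MMP13 libraries lay below native and the MMP1 libraries overlapped it. The log2 folds were -0.07 (95% interval -0.29 to 0.16) and -0.15 (-0.37 to 0.07), with adjusted p of 0.928 and 0.804. The paralog Eif5a2 had between 2.21 and 11.8 units.

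Intervals were narrow for the abundant elongation factors and wide for the sparse Eef1e1 and Eef2k. Eef1a1, which delivers aminoacyl-tRNA to the ribosome, was at 194 and 192 units on native, 183 and 205 on MMP1-remodelled and 213 and 189.8 on MMP13-remodelled matrix. All groups overlapped, and the log2 folds were 0.0037 (95% interval -0.37 to 0.38) and 0.06 (-0.31 to 0.43). Its muscle and nerve paralog Eef1a2 had 2.43 units in native replicate 1 and 0 in the other 5 libraries.

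The eEF1B genes, whose products recharge eEF1A with GTP, summed to 762 and 801 units on native, 781 and 784 on MMP1-remodelled and 757 and 783 on MMP13-remodelled matrix. Their subunits were not alike. Eef1b2 was at 248 and 235 units on native, 304 and 249.7 on MMP1-remodelled and 277 and 250.2 on MMP13-remodelled matrix, above native in all 4 remodelled libraries (log2 folds 0.19 and 0.12, SE 0.17). Eef1d was at 204 and 193 units on native, 166 and 158 on MMP1-remodelled and 174 and 166 on MMP13-remodelled matrix, below native in all 4. Its replicates were closer than the trend, with log2 folds of -0.29 and -0.22 (SE 0.20) and adjusted p of 0.741 and 0.837. With the spread of Eef1d itself (residual SD 0.050, beside 0.20 from the trend) the 95% intervals were -0.45 to -0.13 and -0.38 to -0.06. These rest on 3 residual degrees of freedom and were not adjusted over genes. They are given for Eef1d alone, whose close replicates were already seen, so that they exclude 0 is not a test. Intervals of this kind excluded 0 for some other members as well, among them Eif2b1, Eif5b and, on MMP13-remodelled matrix, Eif5. Eef1g ranged from 299 to 366 units, with overlapping groups and log2 folds of 0.022 and 0.0047. Eef1e1, which mainly serves the tRNA synthetase complex, was at 10.9 and 6.79 units on native, 2.92 and 9.60 on MMP1-remodelled and 2.94 and 3.36 on MMP13-remodelled matrix.

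The translocase gene Eef2 was at 656 and 714 units on native, 649.9 and 678 on MMP1-remodelled and 634 and 646 on MMP13-remodelled matrix. MMP13 lay below native and MMP1 overlapped it, with log2 folds of -0.04 (95% interval -0.28 to 0.20) and -0.10 (-0.34 to 0.14). The eEF2 kinase gene Eef2k, which brakes elongation when active, was at 3.65 and 2.26 units on native, 13.1 and 4.80 on MMP1-remodelled and 4.41 and 11.8 on MMP13-remodelled matrix. Its log2 folds of 1.22 and 1.09 (SE 0.87) rest on few reads, and the native values are at what 3 reads give.

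**Figure D5:**
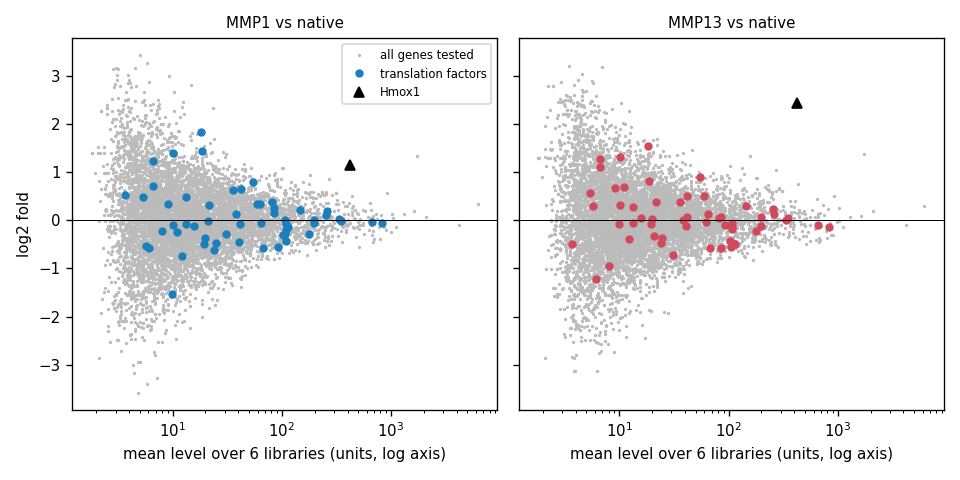
Log2 fold against native over the mean level in units (log axis) for all 7284 tested genes in grey, the 56 tested members in colour and Hmox1 as a triangle, for MMP1-remodelled (left) and MMP13-remodelled matrix (right). The members' spread narrows with level as that of all genes does, and Hmox1 lies at 1.15 and 2.42.

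Between MMP13-remodelled and MMP1-remodelled matrix no member passed. The smallest adjusted p was 0.591, for Eif4ebp1, at 91.2 and 36.9 units on MMP13-remodelled against 111 and 97.2 on MMP1-remodelled matrix. Its log2 fold was -0.83 (SE 0.27), and without MMP13 replicate 2 it was -0.19. Without MMP13 replicate 1 it was -1.47 and passed (adjusted p = 0.00844, with a range of 0.00844 to 1 over all alternatives), on the assumption that the lone MMP13 library varies like the other groups. Eif2a had a log2 fold of 1.46 (SE 0.72, adjusted p = 0.936), which rests on 1 read in MMP1 replicate 2. For the 24 members of at least 60 units the median absolute log2 fold was 0.081, beside 0.14 for all genes at that level.

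Other genes of translation were taken from 8 lists with 79 symbols, of which 72 were in the table and 69 were tested. None passed in any comparison. At an unadjusted p under 0.05 limma had 13 of 69 (18.8%) for MMP1 against native, beside 8.24% of all genes. It had 6 (8.70%) for MMP13 against native, beside 8.05%, and 3 (4.35%) for MMP13 against MMP1, beside 5.22%. Their median log2 fold was 0.19, 0.17 and 0.017, beside 0.016, 0.0088 and -0.0027 over all tested genes. Among 12 tested genes of the integrated stress response, which eIF2 kinases switch on, 0 passed, with medians of 0.31 and 0.13 against native. Of these, 10 had a log2 fold above 0 and 2 below on MMP1-remodelled matrix, and 8 and 4 did on MMP13-remodelled matrix. Chac1 had log2 folds of -1.03 and -0.16, and Atf3 of 0.55 and -0.54. The transcription factor gene Atf4 was at 159 and 188 units on native, 247 and 274 on MMP1-remodelled and 305 and 227 on MMP13-remodelled matrix. All 4 remodelled libraries lay above native, with log2 folds of 0.58 and 0.60 (SE 0.18) and adjusted p of 0.159 and 0.120. Nupr1, a stress-induced chromatin protein gene, was at 62.0 and 30.9 units on native, 81.8 and 81.6 on MMP1-remodelled and 89.0 and 85.6 on MMP13-remodelled matrix (log2 folds 0.88 and 0.98, adjusted p = 0.214 and 0.116).

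Of 6 tested termination and recycling genes 0 passed. Etf1, the stop codon recognition factor, was at 24.3 and 34.0 units on native, 48.2 and 76.8 on MMP1-remodelled and 47.1 and 43.7 on MMP13-remodelled matrix, with log2 folds of 1.06 and 0.64 and adjusted p of 0.221 and 0.650. None of 7 genes for poly(A)-binding proteins and partners passed either. The helicase gene Ddx3x had 136 and 118 units on native, 77.4 and 69.6 on MMP1-remodelled and 80.2 and 80.6 on MMP13-remodelled matrix. Its libraries on remodelled matrix lay below native, with log2 folds of -0.78 and -0.65 (SE 0.26) and adjusted p of 0.221 and 0.397.

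Among 10 tested genes of mTOR and MNK signalling 0 passed. Rheb, the GTPase that activates mTOR, was at 64.4 and 56.6 units on native, 36.5 and 19.2 on MMP1-remodelled and 41.2 and 40.3 on MMP13-remodelled matrix, with log2 folds of -1.16 (SE 0.36, adjusted p = 0.165) and -0.56 (adjusted p = 0.745). Of 22 cytosolic tRNA synthetase genes 0 passed, with medians of 0.19 and 0.15 against native. The seryl-tRNA synthetase gene Sars was at 152 and 217 units on native, 260 and 256 on MMP1-remodelled and 243 and 228 on MMP13-remodelled matrix (log2 folds 0.50 and 0.37, adjusted p = 0.292 and 0.578). Both hypusination genes, Dhps and Dohh, had log2 folds above 0 in both comparisons with native, of 0.63 and 0.32 for Dhps and 0.69 and 0.46 for Dohh, and 0 of 2 passed. Of 7 tested mitochondrial factors 0 passed, with median log2 folds of 0.87 and 0.57 against native, and 5 and 6 of them had a fold above 0. Tufm, the mitochondrial counterpart of eEF1A, was at 14.6 and 21.9 units on native, 33.6 and 33.6 on MMP1-remodelled and 30.9 and 23.5 on MMP13-remodelled matrix (log2 folds 0.87 and 0.57, adjusted p = 0.597 and 0.804). The recycling factor gene Gfm2 had log2 folds of -1.01 and -1.26, with adjusted p of 0.704 and 0.569. In selenocysteine elongation 0 of 3 tested genes passed, and Secisbp2, which binds the selenocysteine element of mRNAs, was at 1.22 and 0 units on native, 0 and 6 on MMP1-remodelled and 5.88 and 6.72 on MMP13-remodelled matrix.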

How the data were processed

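Transcripts of 6 Rat-1 libraries were measured by 3′ end sequencing with a molecular identifier of 8 nucleotides. The submitters' processing notes name bcl2fastq, TopHat, DESeq and build rn5. For versions, read counter, annotation, strand use and identifier collapsing, nothing was given in the sources used. As deposited by the authors, values are a normalized signal, reads over a size factor of each library, as the values themselves show: 100% of values were whole multiples of 1 read (tolerance 0.01). Totals ran from 161817 to 362122 recovered reads. Reads count molecules only where identifiers were collapsed.

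Groups came from sample titles. Genes with at least 5 units in at least 2 libraries (7284) were fitted on log2(value + 1), which understates folds of low genes, with limma 3.58.1 in R 4.3.3 (trend, all 6 libraries, no block, 3 residual degrees of freedom). The prior was infinite, so each error came from the trend. P-values were Benjamini-Hochberg adjusted over all genes tested. edgeR 4.0.16 (4574 genes) and DESeq2 1.42.0 (737 genes adjusted for MMP13 against native) were run on recovered reads; other alternatives changed pseudocount (0.5, 5), filter, scaling, trend, groups, block and libraries. Shares were compared by permutation in Python 3.11.15 with scipy 1.17.1. The scripts were tested on simulated data.

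Members and lists were chosen with earlier results of these data known. The named members are those called, up to 4 most abundant per complex, and per comparison and direction the 5 of largest fold above the median level (13.3 units); Eif2b4, Eif3e, Eif3h, Eif4e, Eif4e2, Eif4g3 and the untested members were added with their values known. Of each other list the gene of smallest p was named. Atf4, Atf3, Chac1, Dohh and Tufm were added with their values known. Symbols matched RefSeq (GRCr8) for 58 members directly and 2 by synonym.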

Additional observations from a re-analysis of the deposited data

How the results depend on the processing

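Among 50 named members, 1581 values under 11 alternatives with all libraries gave 0 calls and 22 with the other sign. With a library left out, 876 values gave 97 with the other sign and 1 call. That call made the count of members lower on MMP13-remodelled than on MMP1-remodelled matrix run from 0 to 1, the 1 being Eif4ebp1 without MMP13 replicate 1 (log2 fold -1.47, adjusted p = 0.00844). The log2 fold of Eif4ebp1 for MMP13 against native was 0.062 without MMP13 replicate 2 and ran from -1.22 to 0.062. The members' median log2 fold for MMP13 against native was -0.0555 with the stricter filter (20 units), -0.0554 by edgeR and -0.0147 by DESeq2, each over another set of tested members, and lay between -0.040 and 0.014 when any single library was dropped. For MMP1 against native it ran from -0.088 to 0.063, and for MMP13 against MMP1 from -0.080 to 0.029.

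The labels do not say whether replicate numbers pair libraries. Deviations of same-numbered libraries from their group means correlated at 0.0059, -0.072 and -0.045 over 7284 genes. Counting noise of sparse genes can also give values this small, so a pairing is not excluded. With the replicate number as a block 0 of 56 members were called in each comparison, with 11, 21 and 2 calls among all 7284 genes. In that fit 6, 6 and 2 members had an unadjusted p under 0.05, and the share of all genes at that p is not given here. Depth limits sparse members: 2 libraries a group and 161817 to 362122 reads leave most of them with intervals wider than 2-fold.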
